A study of Mus musculus with 2 samples.

Results

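The genes described here are 32 members of the glycolytic pathway and of the hypoxia response, taken by name from a list: glucose transporters (Slc2a1, Slc2a3), hexokinases (Hk1, Hk2, Hk3), the enzymes of upper glycolysis (Gpi1, Pfkl, Pfkm, Pfkp, Aldoa, Aldoc, Tpi1) and of lower glycolysis (Gapdh, Pgk1, Pgam1, Eno1, Pkm), lactate enzymes and carriers (Ldha, Ldhb, Slc16a1, Slc16a3), regulators (Hif1a, Egln1, Egln3, Pfkfb3, Pfkfb4, Pdk1), hypoxia targets (Bnip3, Bnip3l, Vegfa, Hilpda) and Pgm2. All 32 were found among the 30840 gene symbols of the series, of which 18962 had at least 1 unique molecular identifier (UMI, which marks 1 captured RNA molecule). The cells were CD45+ leukocytes sorted from colorectal tumor tissue of male C57BL/6 mice, and their RNA was counted by droplet single-cell sequencing of transcript 3′ ends (10x Genomics, V3). The tumors were induced with azoxymethane at 12 mg/kg, a colon carcinogen, followed by 3 cycles of 7 days of 2.5% dextran sodium sulfate, which injures the colon epithelium, and 14 days of water. One library came from mice fed ad libitum and the other from mice given a fasting-mimicking diet (FMD), with the diets started at cycle 2. Each library pooled 4 mice, so there was 1 library per diet, no replicate and no test: the intervals printed below are 95% exact intervals that cover counting error only. The extraction text in the labels also mentions normal colon, and the libraries are called tumor tissue from their titles.

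Glycolysis turns glucose into pyruvate, and cells that divide fast or that have little oxygen pass much of that pyruvate on to lactate. The transcription factor subunit Hif1a is marked for destruction by the oxygen-dependent Egln hydroxylases, and when oxygen is short it accumulates and raises the transcription of transporters, glycolytic enzymes and genes such as Vegfa, Bnip3, Egln3 and Hilpda. Neutrophils live largely on glycolysis, and interleukin-17-producing T cells are known for high Hif1a.

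HIF dimers bind short sequences with the core ACGTG or GCGTG, so the bases before the start of a few members are shown for the letters that these data are set beside. They are the members past the fold threshold used below between the diets (Hilpda, Slc16a3, Egln3, Vegfa, Hk2 and Eno1) and Ldha, the subunit of nearly all lactate dehydrogenase UMIs here. Each is the 250 bases before a RefSeq transcript start (GRCm38.p6), written 5′ to 3′ on the strand of the gene, with every ACGTG and GCGTG on either strand in capitals. A core on the opposite strand reads CACGT or CACGC, and a CACGTG counts once on each strand.
Hilpda (chr6:29272238-29272487, plus strand): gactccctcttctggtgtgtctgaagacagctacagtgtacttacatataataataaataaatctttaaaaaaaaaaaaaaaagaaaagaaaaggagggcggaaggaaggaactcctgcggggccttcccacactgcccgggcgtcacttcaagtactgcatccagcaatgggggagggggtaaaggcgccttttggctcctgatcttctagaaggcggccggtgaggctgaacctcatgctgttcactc
Ldha (chr7:46845554-46845803, plus strand): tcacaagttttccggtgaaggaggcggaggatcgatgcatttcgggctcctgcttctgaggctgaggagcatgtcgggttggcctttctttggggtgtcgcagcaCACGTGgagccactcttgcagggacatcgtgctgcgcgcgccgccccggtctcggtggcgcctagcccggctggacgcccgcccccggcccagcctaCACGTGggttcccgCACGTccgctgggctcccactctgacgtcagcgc
Vegfa (chr17:46032378-46032627, minus strand): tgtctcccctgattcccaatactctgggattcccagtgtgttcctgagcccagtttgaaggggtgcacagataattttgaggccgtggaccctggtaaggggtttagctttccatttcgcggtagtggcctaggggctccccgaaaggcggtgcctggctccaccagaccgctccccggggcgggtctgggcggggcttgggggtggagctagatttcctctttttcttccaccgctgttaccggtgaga
Egln3 (chr12:54203875-54204124, minus strand): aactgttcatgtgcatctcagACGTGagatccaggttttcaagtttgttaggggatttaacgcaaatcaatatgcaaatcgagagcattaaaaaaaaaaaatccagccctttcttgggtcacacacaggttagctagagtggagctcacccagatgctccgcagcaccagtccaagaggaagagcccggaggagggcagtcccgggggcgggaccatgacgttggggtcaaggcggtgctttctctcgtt
Slc16a3 (chr11:120948817-120949066, plus strand): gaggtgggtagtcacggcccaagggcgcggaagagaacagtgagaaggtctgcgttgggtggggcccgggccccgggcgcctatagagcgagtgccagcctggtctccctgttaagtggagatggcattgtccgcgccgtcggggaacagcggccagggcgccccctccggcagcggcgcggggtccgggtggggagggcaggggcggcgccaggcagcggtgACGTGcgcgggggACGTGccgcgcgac
Hk2 (chr6:82774455-82774704, minus strand): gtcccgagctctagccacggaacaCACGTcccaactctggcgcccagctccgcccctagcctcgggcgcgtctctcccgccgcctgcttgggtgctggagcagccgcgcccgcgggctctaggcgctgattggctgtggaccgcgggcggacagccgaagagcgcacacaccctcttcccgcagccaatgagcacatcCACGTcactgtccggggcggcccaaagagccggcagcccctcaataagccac
Eno1 (chr4:150236458-150236707, plus strand): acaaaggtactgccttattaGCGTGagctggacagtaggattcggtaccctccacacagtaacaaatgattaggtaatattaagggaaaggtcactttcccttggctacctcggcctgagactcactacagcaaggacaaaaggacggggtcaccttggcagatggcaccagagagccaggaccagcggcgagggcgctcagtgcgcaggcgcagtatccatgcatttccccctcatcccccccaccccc
The Ldha window held 5 cores, among them 2 CACGTG. The windows of Slc16a3 and Hk2 held 2 each, those of Egln3 and Eno1 held 1, and the windows shown for Hilpda and Vegfa held 0. The window of the other RefSeq start held 3 cores for Hilpda and 2 for Vegfa, and another Eno1 window held 2. The Slc16a3 cores lie 27 to 23 and 14 to 10 bases before the start, and the Hk2 cores 226 to 222 and 52 to 48 bases before it. Hilpda, Vegfa, Ldha and Eno1 have more than 1 RefSeq start, and the one shown is the one with the most cores among the starts whose window overlaps annotated exons by at most 30 bases. Over every window in the RefSeq table, 12679 of 32851 (38.6%) held a core, against 36 of 45 windows (80.0%) of the 30 members with an entry. By gene, 28 of these 30 members (93.3%) and 11226 of 27025 genes (41.5%) had a core in at least 1 window. Gpi1 and Tpi1 had none, and Slc2a3 and Bnip3l were not matched. Both cores contain the letters CG, and the windows of members and of all genes were not matched for base content. A match in these letters is not a bound site.

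Barcodes numbered 6089 (ad libitum) and 5877 (FMD), with 35712762 and 35280790 UMIs and no barcode under 500, and 4851 and 4590 cells were kept. Both libraries contained 7 of the barcodes, 4 of them among the kept cells. The members took 95238 and 103565 UMIs, or 0.326% and 0.357% of all UMIs outside immunoglobulin and mitochondrial genes. Cells were clustered without the 32 members and without the related genes named below, and 11 classes were named from marker genes. A further cluster, with Cd3e and closest to the natural killer list, was set apart by a rule for Xcl1 among its leading genes. It is called the Xcl1 cluster by its leading gene (followed by Il22, Cd7 and Klrd1). The rules that name CD8 T-like or helper or naive T-like cells were not applied to this cluster. The B-like class had 3081 and 2756 cells (ad libitum and FMD), helper or naive T-like 595 and 598, regulatory T-like 210 and 293, CD8 T-like 231 and 196, and the Xcl1 cluster 150 and 132. These 5 had at least 100 cells in each library and were compared between diets. The neutrophil-like (67 and 51), macrophage or dendritic-like (79 and 134), mast-like (8 and 16), innate lymphoid-like (25 and 82), gamma delta T-like (74 and 47), plasma-like (90 and 32) and germinal center B-like (70 and 84) classes are described by their values alone. A level is a gene's UMIs per 1000000 UMIs of the class outside immunoglobulin and mitochondrial genes, written CPM. Levels are not divided by transcript length, since the kit reads transcript 3′ ends, and are compared between classes or diets, not between genes. A summed level does not tell fewer expressing cells from less RNA per cell, so the number of cells with a UMI is given for the genes that the results turn on.

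Summed over all 32 members, the level was highest in the neutrophil-like class, at 7540 [7220, 7870] CPM in the ad libitum library and 7970 [7570, 8380] in the FMD library. In the ad libitum library its interval overlapped that of gamma delta T-like cells, 7370 [7150, 7590]. The summed level was lowest in the B-like class, at 2160 [2130, 2180] and 2250 [2230, 2280]. In the median cell the members took 0.667% and 0.765% of UMIs in neutrophil-like cells and 0.201% and 0.209% in B-like cells. Gamma delta T-like cells (7370 and 6570), innate lymphoid-like cells (6270 and 6120), regulatory T-like cells (5910 and 6320) and macrophage or dendritic-like cells (5490 and 5960) lay above both helper or naive T-like cells (4570 in each library) and CD8 T-like cells (2810 and 2940). Median depth did not follow this order: it was 3947 and 3701 UMIs per cell in the neutrophil-like class, 5064 and 5209.5 in the B-like class and 15391 and 15579 in the macrophage or dendritic-like class.

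**Figure D1:**
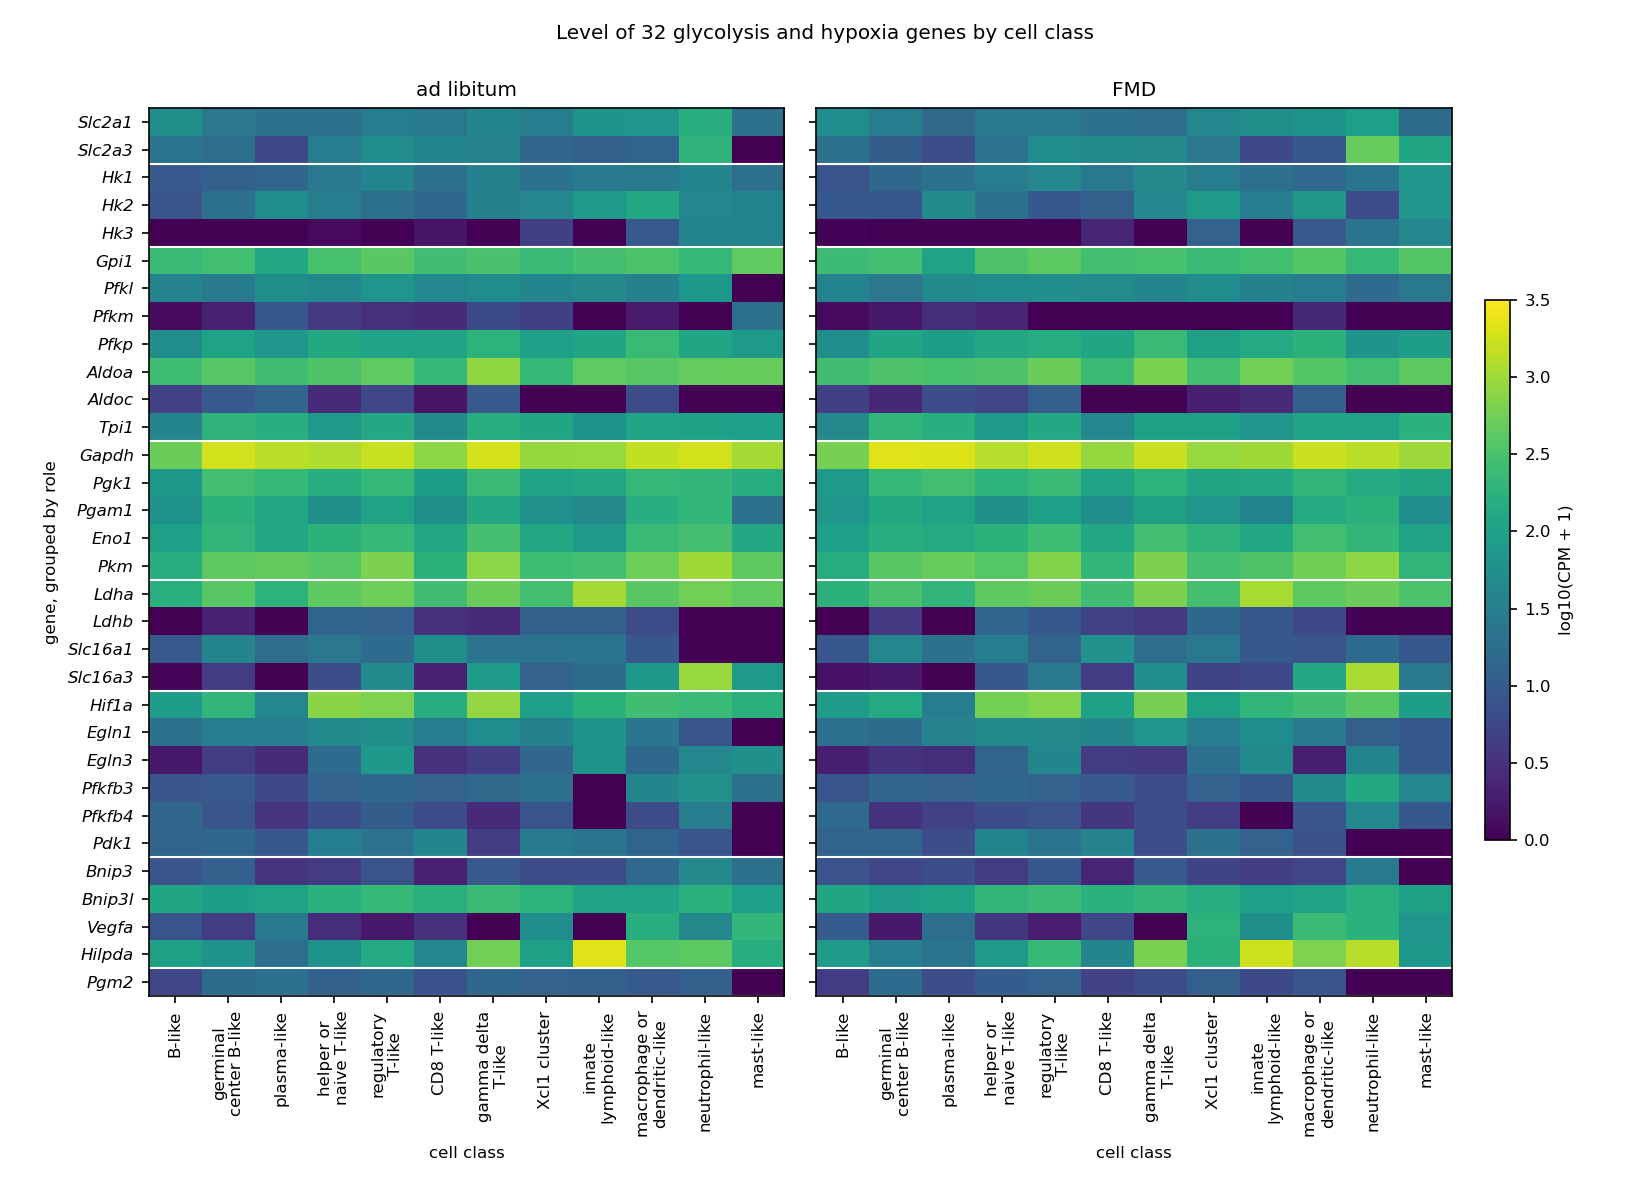
Levels of the 32 members (rows, grouped by role between white lines) in the 12 cell classes (columns), as log10(CPM + 1), for the ad libitum library on the left and the FMD library on the right. Hilpda is brightest in the innate lymphoid-like column of both libraries and Slc16a3 in the neutrophil-like column.

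The members did not vary as a single block. The 21 members from glucose transport to lactate summed to 4400 and 4410 CPM in germinal center B-like cells, near the 4460 and 4580 of macrophage or dendritic-like cells. The 10 regulators and hypoxia targets summed to 433 and 300 in germinal center B-like cells and to 1020 and 1370 in macrophage or dendritic-like cells. Plasma-like cells had the same profile as germinal center B-like cells in this respect, with 3270 and 4110 for the first sum and 236 and 226 for the second. Innate lymphoid-like cells had a first sum in the range of plasma-like cells, 3710 and 3930, but a second sum of 2550 and 2180, in the ad libitum library the highest of the classes.

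**Figure D2:**
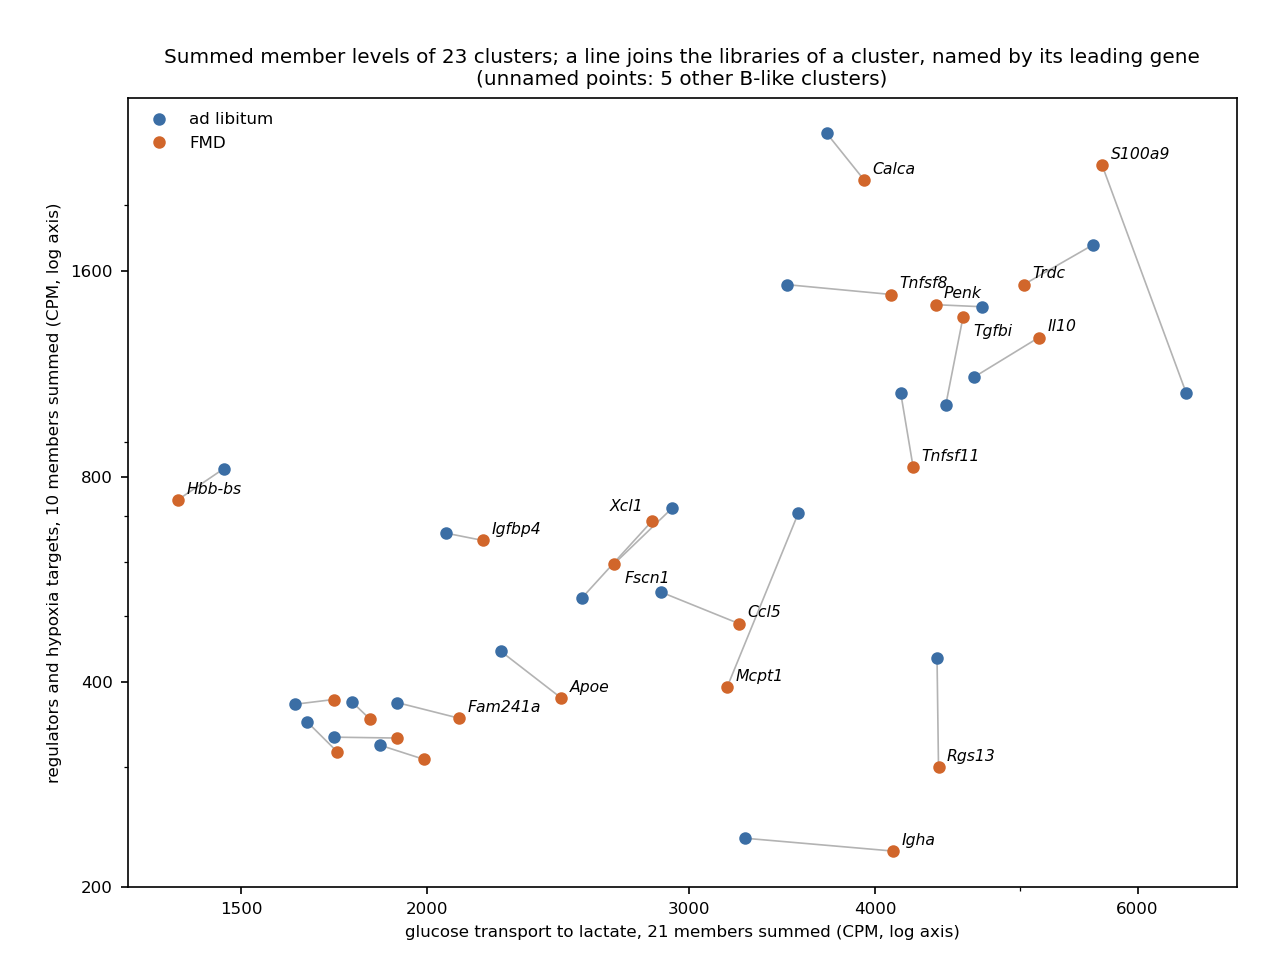
Summed level of the 21 members from glucose transport to lactate (x axis) against that of the 10 regulators and hypoxia targets (y axis), in CPM on log axes, for the 23 clusters in each library; a line joins the libraries of a cluster, and clusters carry the name of their leading gene. The germinal center B-like (Rgs13) and plasma-like (Igha) clusters sit low, at 236 to 433 and 226 to 300 on the y axis for the ad libitum and FMD libraries, and the neutrophil-like cluster (S100a9) moves from 1060 to 2290 on the y axis.

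Of the 32 members, 14 had the same top class in both libraries, and for 8 of these it was the neutrophil-like class: Slc2a1, Slc2a3, Pgam1, Pkm, Slc16a3, Pfkfb3, Pfkfb4 and Bnip3. Of the 30 members with at least 100 UMIs over all classes, the neutrophil-like class was on top in both libraries for 26.7%, against 5.70% of all such genes, and some single class for 43.3%, against 54.2%. Some of these rest on few UMIs: neutrophil-like Bnip3 had 12 and 5 UMIs and Pfkfb4 8 and 8, and Slc2a1, with 43 and 18, overlapped in FMD with macrophage or dendritic-like cells (94.8 [56.2, 150] against 60.1 [49.9, 71.8] CPM). Ldha and Hilpda were highest in innate lymphoid-like cells, Aldoa in gamma delta T-like cells, Tpi1 in germinal center B-like cells and Slc16a1 in CD8 T-like cells. Hk3 was highest in mast-like cells on 2 and 5 UMIs only. The other 18 members had a different top class in each library.

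Among the glucose transporters, Slc2a3, the high-affinity transporter, stood at 190 [142, 249] CPM in the neutrophil-like cells of the ad libitum library (52 UMIs in 25 cells) and at 479 [386, 589] in those of the FMD library (91 UMIs in 26 cells). Slc2a1, the widely expressed basal transporter, stood at 157 [114, 212] and 94.8 [56.2, 150] there, from 43 and 18 UMIs. In neutrophil-like cells Slc2a1 made up 45.3% [35.0, 55.8] of the UMIs of this transporter pair in ad libitum and 16.5% [10.1, 24.8] in FMD. These intervals did not overlap, and Slc2a3 was the larger part in FMD. In ad libitum Slc2a3 made up 54.7% [44.2, 65.0], an interval that overlaps that of Slc2a1. In B-like cells Slc2a1 was the larger part, at 71.2% and 73.2%, and in macrophage or dendritic-like cells at 83.8% and 88.4%. Helper or naive T-like cells had 39.4% [32.6, 46.5] and 54.6% [47.4, 61.8], with Slc2a1 the smaller part in ad libitum only.

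The hexokinases trap glucose in the cell as glucose 6-phosphate. Hk2, the inducible form, made up 78.2% and 75.3% of hexokinase UMIs in macrophage or dendritic-like cells, 63.4% and 65.8% in the Xcl1 cluster and 33.3% and 16.8% in regulatory T-like cells. Within the helper or naive T-like class, Hk2 was uneven between clusters: 51.0 and 36.4 CPM in the cluster led by Tnfsf11 and Ccl20, which also has Il17f among its leading genes, and 2.96 and 4.72 in the cluster led by Igfbp4 and Lef1. Hk3, a form known from myeloid cells, had 10 and 4 UMIs in neutrophil-like cells and 11 and 17 in macrophage or dendritic-like cells.

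Of the 3 phosphofructokinases, which catalyse the committed step of glycolysis, Pfkp made up 59.1% and 57.7% of UMIs in B-like cells, 73.6% and 72.0% in helper or naive T-like cells and 87.7% and 85.5% in macrophage or dendritic-like cells. Of the aldolases, Aldoc made up at most 4.5% in any class, and Aldoa carried the rest. Aldoa, which splits fructose bisphosphate, was highest in gamma delta T-like cells at 828 [756, 905] and 633 [552, 723] CPM, against 256 and 263 in B-like cells.

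Germinal center B-like cells, whose leading genes include the proliferation genes Mki67 and Top2a, were set beside the other B-like cells of the same library. Of 27 members with at least 100 UMIs over both classes, 11 were at least 1.5-fold higher in germinal center B-like cells in both libraries, among all genes 28.1%, and 4 were at least 1.5-fold lower in both, among all genes 10.5%. The 11 were mostly enzymes. Tpi1, which interconverts the triose phosphates, was 4.92-fold and 4.62-fold higher (38.0 and 43.8 CPM in B-like cells, 187 and 202 in germinal center B-like cells). Gapdh, the glyceraldehyde phosphate dehydrogenase, was 3.52-fold and 3.57-fold higher, from 524 and 596 to 1850 and 2130. Pgk1 was 3.80-fold and 2.82-fold higher, and Slc16a1, a carrier of lactate and pyruvate, 4.26-fold and 5.14-fold. The others were Pfkp, Pgam1, Eno1, Pkm, Ldha, Hif1a and Pgm2, each at least 1.65-fold higher in each library. Summed T markers were at 658 and 286 CPM in germinal center B-like cells, against 32.4 and 34.8 in B-like cells. Regulatory T markers were at 431 and 117, against 12.3 and 15.4. Some T-like classes had far more Hif1a than either B class, as given below. The part of these marker differences in the folds was not tested. The 4 lower members were the transporter Slc2a1 (0.45 and 0.58 of the B-like level), the lipid droplet protein Hilpda (0.64 and 0.37) and, on few UMIs in germinal center B-like cells, the bifunctional regulator Pfkfb4 (7 and 3 UMIs) and the growth factor Vegfa (3 and 1 UMIs). Thinned to 1000 UMIs per cell, with the same minimum, 9 members were higher and 0 lower, fewer members reaching 100 UMIs.

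Nearly all lactate dehydrogenase UMIs were of Ldha, the subunit that favours pyruvate to lactate. Ldhb had 0 UMIs in B-like cells of either library, beside 2576 and 2581 of Ldha, which allows Ldhb a share of up to 0.116% of the pair in each. Ldhb made up 2.8% and 2.9% of this pair in helper or naive T-like cells and 3.8% and 4.6% in the Xcl1 cluster. Ldha itself was highest in innate lymphoid-like cells at 1060 [916, 1220] and 1100 [1020, 1190] CPM, against 163 [157, 170] and 178 [171, 185] in B-like cells.

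The lactate carriers split the classes. Slc16a3, known as the low-affinity lactate exporter of glycolytic cells, stood at 914 [804, 1030] and 1150 [1000, 1310] CPM in neutrophil-like cells (250 UMIs in 49 of 67 cells, and 218 UMIs in 39 of 51 cells). The 3081 and 2756 B-like cells held 2 and 7 UMIs of it in all, and plasma-like cells 0 (at most 2.93 and 7.06 CPM by the intervals), so free Slc16a3 RNA in these droplets was near that low level. Slc16a1, the high-affinity carrier, made up 98.6% and 94.3% of this pair in B-like cells, 98.0% and 94.7% in CD8 T-like cells and 79.5% and 78.1% in helper or naive T-like cells. It was the smaller part in regulatory T-like (26.1% and 33.3%), gamma delta T-like (20.3% and 26.1%), macrophage or dendritic-like (9.9% and 5.6%) and neutrophil-like cells (0 of 250 UMIs in the ad libitum library, which allows up to 1.2%, and 1.4% in FMD).

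**Figure D3:**
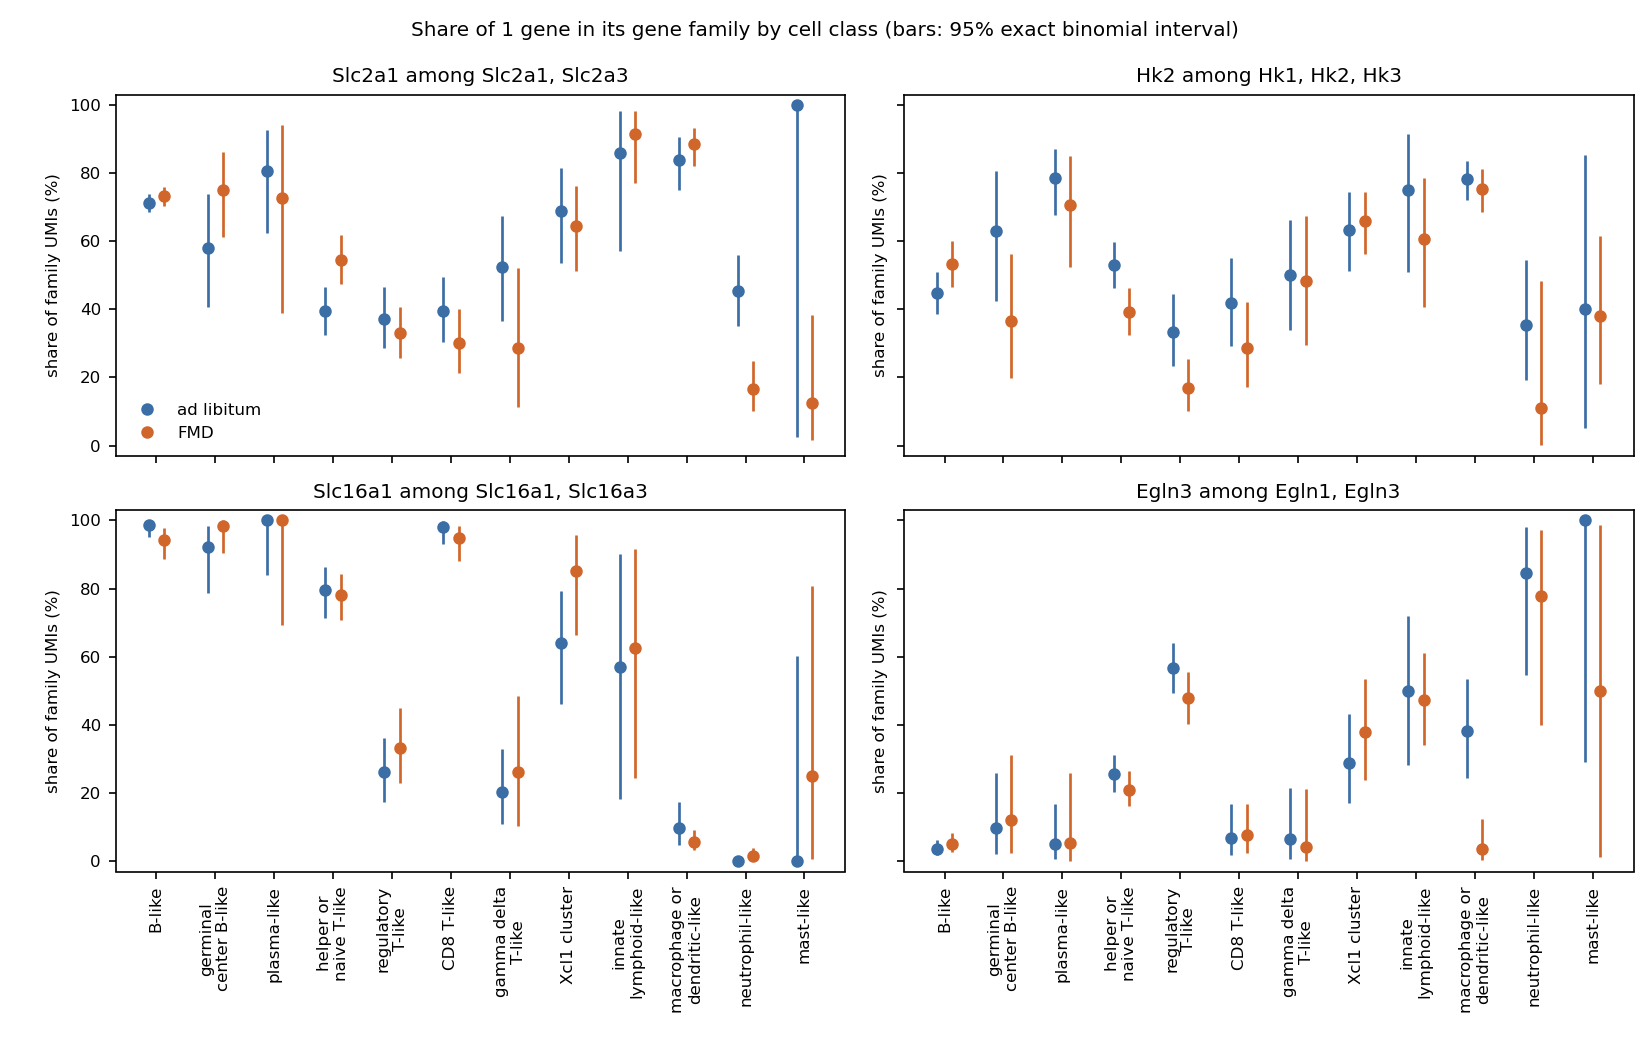
Share of family UMIs (%) held by Slc2a1, Hk2, Slc16a1 and Egln3 in each cell class, with 95% exact binomial intervals, for the ad libitum and FMD libraries. Slc16a1 runs from over 94% in B-like and CD8 T-like cells to at most 1.4% in neutrophil-like cells.

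Among the regulators, Hif1a was highest in the helper or naive, regulatory and gamma delta T-like classes. It stood at 750 [724, 777] and 578 [556, 601] CPM in helper or naive T-like cells, 675 [634, 717] and 714 [678, 750] in regulatory T-like cells, and 858 [785, 937] and 607 [528, 695] in gamma delta T-like cells, whose leading genes include Il17a. B-like cells had 88.0 and 83.0, the Xcl1 cluster 94.1 and 95.8, CD8 T-like cells 151 and 101, and germinal center B-like cells 203 and 137. Among helper or naive T-like clusters, the one led by Tnfsf8 and Izumo1r had the most, 1190 and 1060, and the one led by Igfbp4 and Lef1 the least, 351 and 281. The oxygen sensor Egln1 was spread more evenly, with 19.4 and 17.9 in B-like cells, 45.3 and 46.2 in helper or naive T-like cells and 54.4 and 42.8 in regulatory T-like cells. Egln3, the hydroxylase known to be induced by HIF, was not: it stood at 0.698 and 0.965 in B-like cells, 15.5 and 12.3 in helper or naive T-like cells and 71.5 and 39.1 in regulatory T-like cells. Egln3 made up 56.8% and 47.8% of the pair in regulatory T-like cells and 3.5% and 5.1% in B-like cells.

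Pfkfb3 and Pfkfb4 make the allosteric activator of phosphofructokinase. Pfkfb3 made up 87.5% and 85.7% of this pair in macrophage or dendritic-like cells and 36.2% and 33.8% in B-like cells. Pfkfb3 was highest in neutrophil-like cells, at 58.5 [33.4, 95] and 132 [85.2, 194] CPM from 16 and 25 UMIs, 10 of the 25 in 1 cell. Pdk1, which inhibits pyruvate dehydrogenase, stood at 13.0 and 11.9 in B-like cells and 31.5 and 37.2 in helper or naive T-like cells.

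Hilpda, a lipid droplet protein that inhibits fat breakdown, was highest in innate lymphoid-like cells. It stood at 2120 [1920, 2340] and 1710 [1610, 1820] CPM there, and 23 of 25 and 72 of 82 cells held a UMI. The cluster was led by Calca, Csf2 and Il5, and Hilpda was also among its 10 leading genes although it took no part in the clustering. Gamma delta T-like cells had 568 and 630, macrophage or dendritic-like cells 374 and 669, neutrophil-like cells 417 and 1320, B-like cells 95.5 and 82.1 and plasma-like cells 17.5 and 21. With each cell thinned to 1000 UMIs, a Hilpda UMI was found in 56.0% and 59.3% of innate lymphoid-like cells, 33.8% and 48.9% of gamma delta T-like cells, 7.77% and 8.07% of B-like cells and 1.12% and 0% of plasma-like cells (0 of 32, which allows up to 9.38%). Plasma-like cells were the deepest, with medians of 38032.5 and 40722 UMIs before thinning, and the thinned UMIs include immunoglobulin RNA, so free RNA is diluted in them and their share is no background for the shallower classes. Bnip3l, a mitophagy receptor, was far more abundant in UMIs than its relative Bnip3, which made up 6.2% and 5.6% of the pair in B-like cells and 20.3% and 13.9% in neutrophil-like cells.

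Vegfa, the endothelial growth factor, was concentrated in few classes. Macrophage or dendritic-like cells had 153 [132, 176] and 239 [219, 262] CPM (194 and 486 UMIs), and mast-like cells 205 and 65.4 from 11 and 8 UMIs. B-like cells had 7.23 and 9.31, helper or naive T-like cells 1.91 and 2.56, regulatory T-like cells 0.656 and 0.920, CD8 T-like cells 2.20 and 4.50 and gamma delta T-like cells 0 in both (at most 6.26 and 10.7 by the intervals). Of the 5 compared classes, the Xcl1 cluster was highest by far, at 51.1 and 183.

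**Figure D4:**
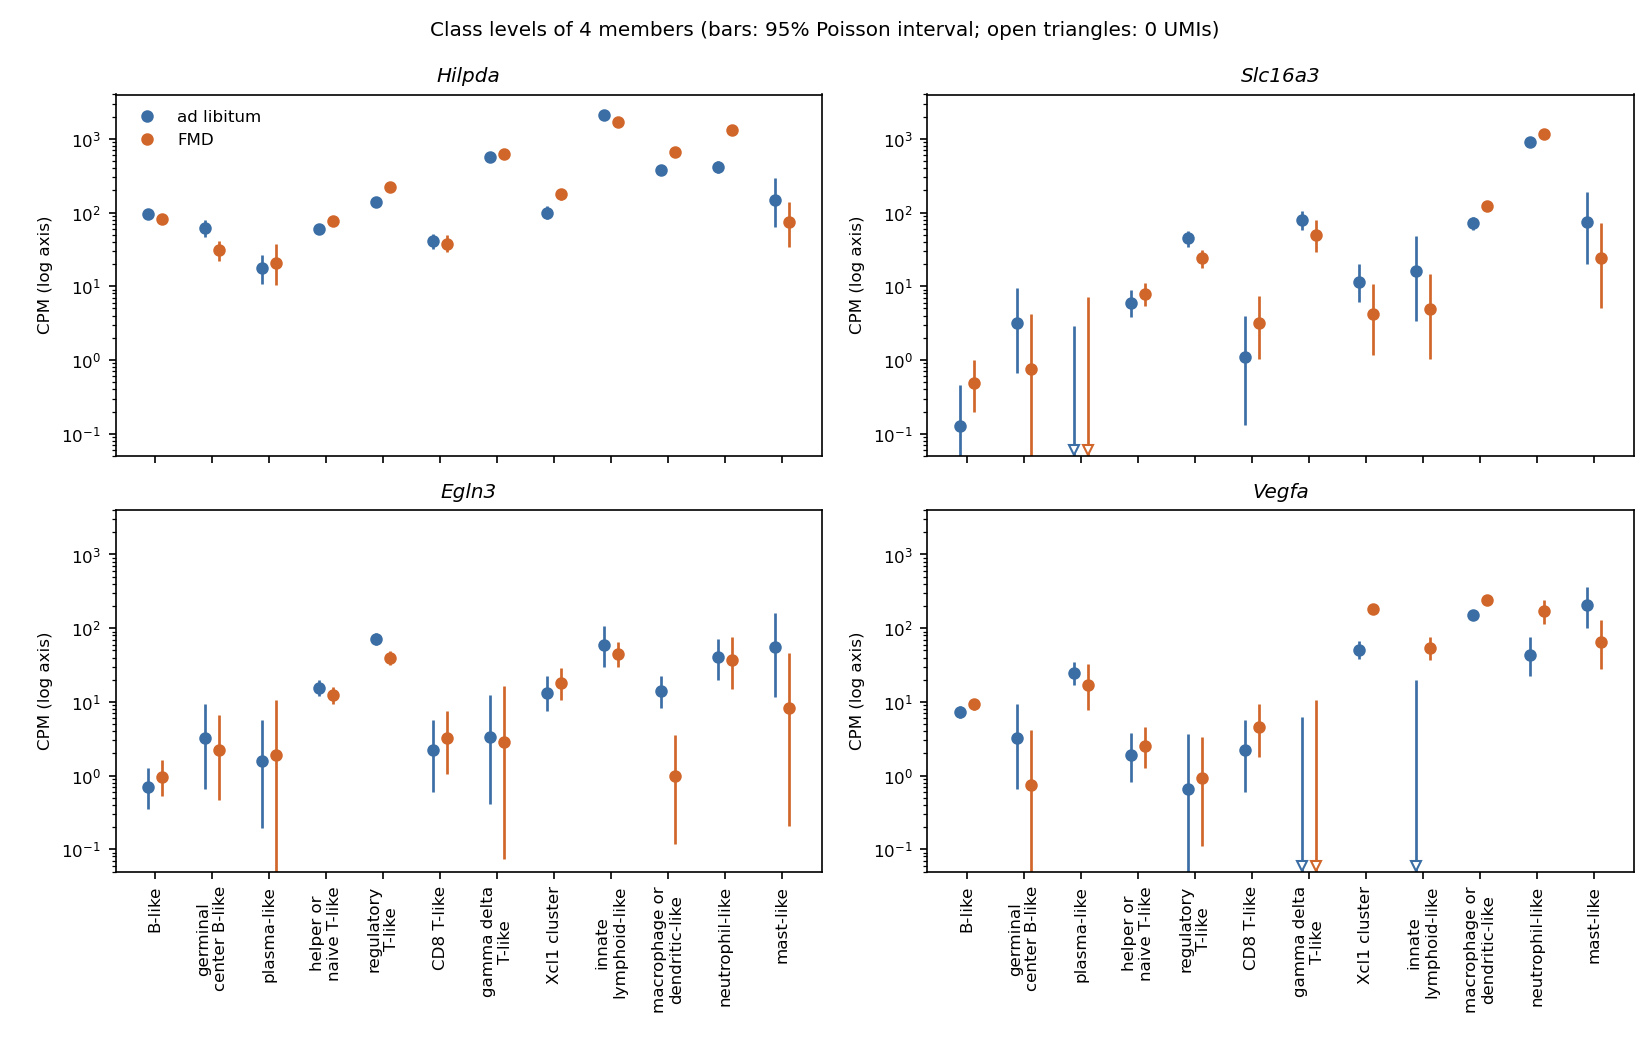
Levels of Hilpda, Slc16a3, Egln3 and Vegfa by cell class in CPM on a log axis, with 95% Poisson intervals, for the ad libitum and FMD libraries; open triangles mark 0 UMIs. Slc16a3 spans from under 1 in B-like cells to 1150 in FMD neutrophil-like cells, and Vegfa in the Xcl1 cluster moves from 51.1 to 183.

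Between diets, the members in B-like cells differed little. Of 27 members with at least 100 UMIs over both libraries, 0 were past 1.5-fold, among all genes 1.32% (0.631% higher and 0.688% lower in FMD). Their log2 ratios of FMD over ad libitum ran from −0.55 (Pgm2) to 0.36 (Vegfa), with a median of −0.01, against 0.00 for all genes. Gapdh, with the most UMIs, had a ratio of 0.19 [0.14, 0.23]. Summed erythroid markers in the class were at 45 and 2099 UMIs (2.86 and 145 CPM). The part of that marker difference in these ratios was not tested.

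In helper or naive T-like cells 0 of 24 members were past 1.5-fold, among all genes 2.92% (1.15% higher and 1.77% lower in FMD), with a median log2 ratio of 0.05 against −0.03 for all genes. The lowest was Hk2 at −0.58 [−1.0, −0.16], from 28.4 to 19.0 CPM, just inside the threshold, and the highest Slc2a1 at 0.37 [−0.06, 0.80]. Hif1a was lower in FMD by less than 1.5-fold, at −0.38 [−0.45, −0.30]. The difference was uneven between clusters, a split looked at after these values were seen: −0.67 in the cluster led by Tnfsf11, from 693 to 437 CPM, −0.32 in that led by Igfbp4 and −0.17 in that led by Tnfsf8. In CD8 T-like cells 0 of 18 members were past 1.5-fold, among all genes 2.96% (0.943% higher and 2.01% lower in FMD), with a median of 0.06 against −0.02. There Hif1a was the lowest, at −0.58 [−0.87, −0.29], from 151 to 101, and Egln1 the highest at 0.40. The CD8 T-like class pooled a cluster led by Fam241a and Cd8b1 (119 and 113 cells) and one led by Ccl5 and Cd8a (112 and 83). Regulators and hypoxia targets summed to 373 and 354 CPM in the first and 542 and 487 in the second. The part of their proportion in the Hif1a ratio was not tested.

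In regulatory T-like cells 3 of 19 members were past 1.5-fold, among all genes 5.19%, while the median log2 ratio of 0.07 was close to the 0.05 of all genes. One was higher in FMD, among all genes 3.26%, and 2 were lower, among all genes 1.93%. Hilpda went from 141 [123, 161] to 223 [203, 243] CPM, a log2 ratio of 0.66 [0.42, 0.90]. Its 215 UMIs in the ad libitum library lay in 87 of 210 cells (41.4%) and its 484 in the FMD library in 167 of 293 (57.0%). With each cell thinned to 1000 UMIs the shares were 10.5% [6.68, 15.4] and 20% [15.6, 25.1], against 2.17% and 5.61% in CD8 T-like cells, whose median depth of 7842 and 8328 UMIs was close to the 6813.5 and 6884 of regulatory T-like cells. A share of cells with a UMI goes up with the mean level, so these shares do not tell more expressing cells from more RNA per cell. Egln3 went from 71.5 [58.7, 86.2] to 39.1 [31.2, 48.4], a log2 ratio of −0.87 [−1.30, −0.45], from 109 UMIs in 54 cells and 85 in 53. Slc16a3 went from 44.6 to 23.9, a log2 ratio of −0.90 [−1.45, −0.36], from 68 UMIs in 36 cells and 52 in 32. These lower levels of a HIF-induced hydroxylase and of the lactate exporter stood beside a higher level of Hilpda in the same class.

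The regulatory T-like class was made of a cluster led by Il10 and Foxp3 (140 and 230 cells) and a cluster led by Penk and Tnfrsf4 (70 and 63 cells), so their proportion differed between the libraries. Hilpda went from 119 to 223 CPM in the Il10 cluster, a log2 ratio of 0.90, and from 188 to 223 in the Penk cluster, 0.25. Egln3 was mostly in the Penk cluster, at 184 and 122 (−0.59), while the Il10 cluster had 20.1 and 19.4 (−0.05). Slc16a3 went from 79.4 to 31.2 in the Penk cluster (−1.35) and from 28.7 to 22.2 in the Il10 cluster (−0.37). Taken alone, the Il10 cluster was past 1.5-fold for Hilpda only, and the Penk cluster for Slc16a3 (38 and 13 UMIs) and, just, for Egln3 (88 and 51 UMIs). Summed macrophage markers were at 5.90 and 5.06 CPM in the class, and helper or naive T markers at 1050 and 696. The part of that marker difference in these ratios was not tested.

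Set beside helper or naive T-like cells of the same library, regulatory T-like cells had 7 of 26 members at least 1.5-fold higher in both libraries, among all genes 9.73%, and 2 at least 1.5-fold lower in both, among all genes 5.15%. The carrier Slc16a3 was 7.48-fold and 3.03-fold higher, Egln3 4.61-fold and 3.18-fold, Hilpda 2.36-fold and 2.94-fold and the transporter Slc2a3 1.70-fold and 2.39-fold. Egln3 was mostly in the regulatory cluster led by Penk, as given above. The enzymes Tpi1, Pgam1 and Pkm were between 1.68-fold and 1.90-fold higher. Hk2 was at 0.65 and 0.43 of the helper or naive T-like level, and Pdk1 at 0.65 and 0.57. The helper or naive T-like class includes the cluster led by Igfbp4 and Lef1, where all members summed to 2720 and 2830 CPM. Its clusters led by Tnfsf11 and Tnfsf8 had 5230 and 5070, and 5040 and 5590. The regulatory clusters led by Il10 and Penk had 5800 and 6440, and 6150 and 5830. The part of the Igfbp4 cluster in these folds was not tested. At a coarser clustering resolution of 0.5 the counts were 4 higher and 1 lower. The helper or naive T-like class then held 435 and 401 cells, against 595 and 598. With cells thinned to 1000 UMIs the counts were 2 and 0.

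In the Xcl1 cluster 4 of 15 members were past 1.5-fold, among all genes 5.49%. All 4 were higher in FMD, among all genes 4.18%, and 0 were lower, among all genes 1.31%. The median log2 ratio of the 15 was 0.15, against 0.02 for all genes, and the lowest was Bnip3l at −0.32. Vegfa went from 51.1 [38.7, 66.2] to 183 [157, 213] CPM, a log2 ratio of 1.84 [1.40, 2.3], with 57 UMIs in 20 of 150 cells and 172 UMIs in 40 of 132 cells. The cell with the most held 8 and 22 of these UMIs, and at 1000 UMIs per cell 7.33% [3.72, 12.7] and 13.7% [8.35, 20.8] of cells had one, against 0 of 210 and 0 of 290 regulatory T-like cells (which allows up to 1.43% and 1.03%). The median depth before thinning was 7433.5 and 7201.5 UMIs in the Xcl1 cluster. The thinned shares of the libraries overlap in their intervals, while the levels do not. Hk2 went from 40.3 to 79.8, a log2 ratio of 0.99 [0.43, 1.55], with 45 UMIs in 20 cells and 75 in 32. Hilpda went from 100 to 176, at 0.81 [0.45, 1.17], with 112 UMIs in 53 cells and 165 in 50. Eno1, the enolase, went from 122 to 186, at 0.61 [0.28, 0.95], just outside the threshold. Without its top cell in each library it was at 0.55, and without doublet removal at 0.50, inside it. Reads of Eno1 can be shared with its near-identical copy Eno1b.

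Marker lists in the Xcl1 cluster also differed between libraries. Macrophage markers were at 5 and 9 UMIs (4.48 and 9.58 CPM), mast markers at 1 and 3 UMIs, and dendritic markers at 45.7 and 67.1 CPM. Innate lymphoid markers were at 942 and 1280, CD8 T markers at 6820 and 5230 and T markers at 2170 and 1610. In CD8 T-like cells the CD8 T markers were at 7360 and 6840. The part of the lymphoid marker differences in the member ratios was not tested.

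**Figure D5:**
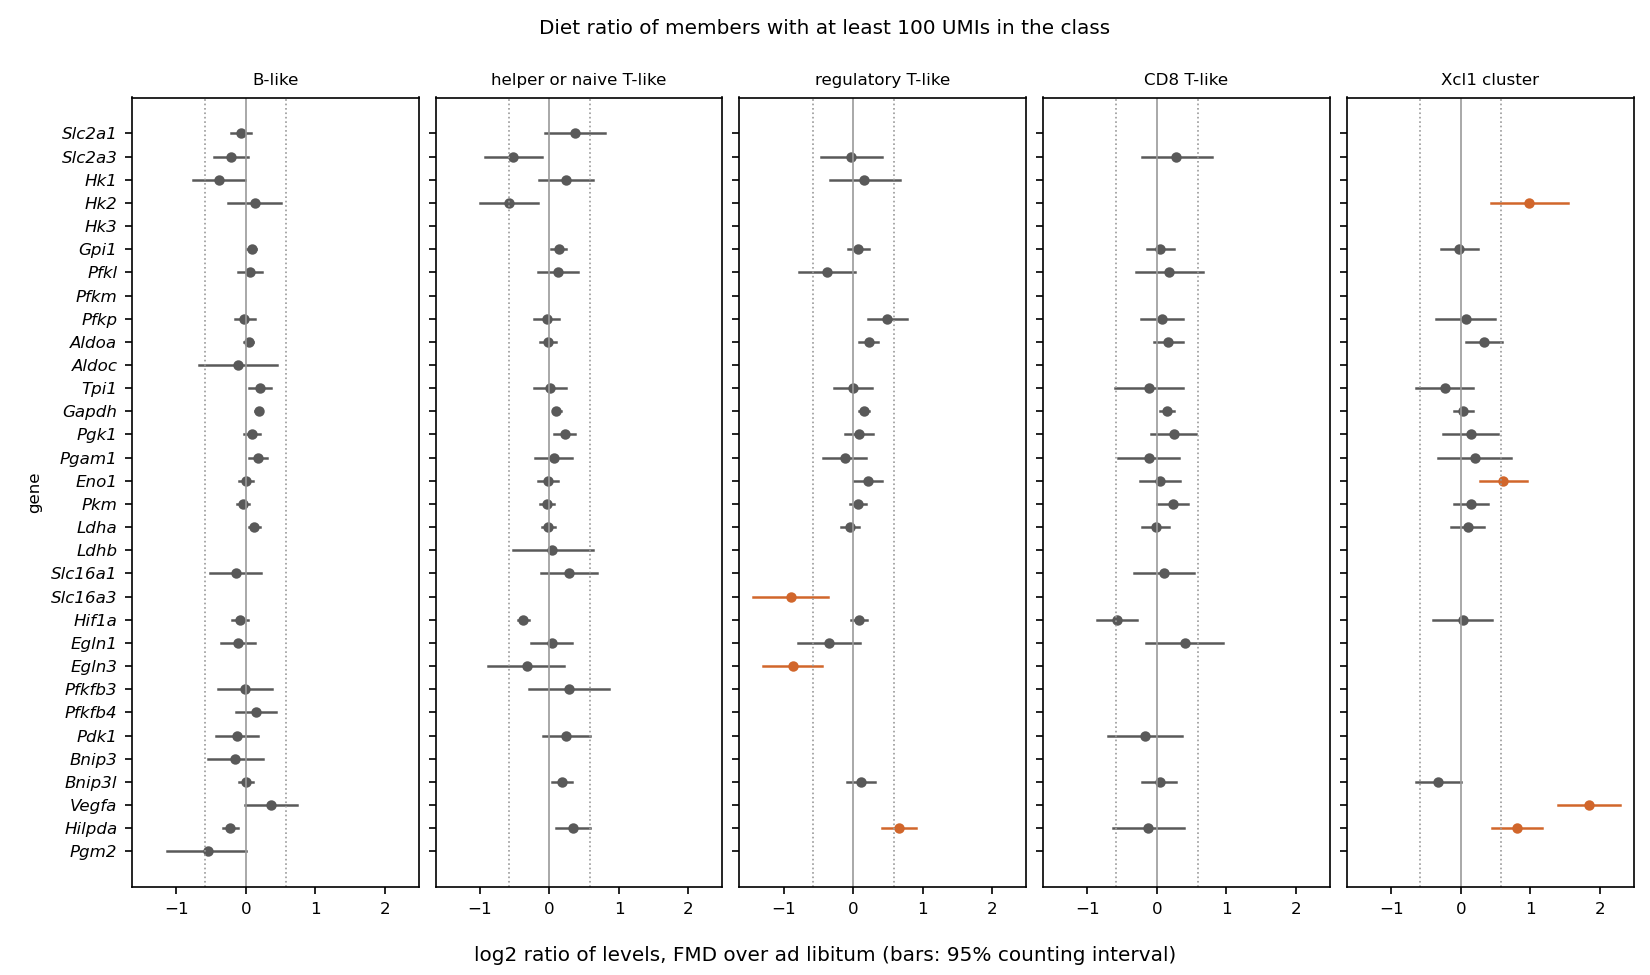
Log2 ratio of levels, FMD over ad libitum, of each member with at least 100 UMIs (rows) in the 5 compared classes (panels), with 95% counting intervals; dotted lines mark 1.5-fold and colored points lie past it. The 3 colored points of the regulatory T-like panel fall on both sides of 0 and the 4 of the Xcl1 cluster all lie to the right.

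In the classes under 100 cells the diet values of some members lay far apart, on few cells. Neutrophil-like Hilpda had 114 UMIs in 19 of 67 cells of the ad libitum library and 250 UMIs in 23 of 51 cells of the FMD library, 417 [344, 501] and 1320 [1160, 1490] CPM. Neutrophil-like Vegfa had 12 and 32 UMIs (43.9 and 169), whereas neutrophil-like Gapdh was lower in FMD, at 1840 [1680, 2010] and 1370 [1210, 1550]. In macrophage or dendritic-like cells Hilpda had 476 and 1358 UMIs (374 and 669 CPM), and Hk2 had 165 and 143 (130 [111, 151] and 70.4 [59.4, 83.0]). Hilpda was thus higher and Hk2 lower in the FMD macrophage or dendritic-like cells. Marker lists in this class differed as well: macrophage markers were at 1500 and 2410 CPM, dendritic markers at 546 and 522, epithelial markers at 616 and 49.3, and helper or naive T markers at 649 and 1090. In neutrophil-like cells neutrophil markers were at 136000 and 121000 CPM and epithelial markers at 32.9 and 142. The part of these marker differences in the member values was not tested. Egln3 had 18 and 2 UMIs in macrophage or dendritic-like cells, 14 of the 18 in 1 cell. Innate lymphoid-like Vegfa had 0 UMIs in 25 cells and 33 UMIs in 82 cells, 15 of them in 1 cell.

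The surrounding pathways were followed with 63 related genes in 6 lists. Of the other hypoxia targets, 0 of 12 were past 1.5-fold higher in FMD and 1 lower in B-like cells, 0 of 11 and 2 in helper or naive T-like cells, 2 of 10 and 0 in regulatory T-like cells, 0 of 6 and 0 in CD8 T-like cells, and 2 of 4 and 1 in the Xcl1 cluster. Among all genes the shares higher and lower were, in the same order, 0.631% and 0.688%, 1.15% and 1.77%, 3.26% and 1.93%, 0.943% and 2.01%, and 4.18% and 1.31%. Ddit4, an inhibitor of mTORC1 known to respond to stress and glucocorticoids as well as hypoxia, was higher in FMD in regulatory T-like cells, from 119 to 215 CPM (log2 ratio 0.85), and in the Xcl1 cluster, from 59.1 to 111 (0.90). Plin2, which like Hilpda coats lipid droplets, went from 83.3 to 135 in regulatory T-like cells (0.70) and from 5.01 to 3.1 in B-like cells (−0.69). Bhlhe40, a transcriptional repressor, went from 498 to 878 in the Xcl1 cluster (0.82), while the mitochondrial protein Higd1a went from 133 to 73.5 (−0.85). In helper or naive T-like cells P4ha1, a collagen prolyl hydroxylase subunit, was lower at −0.67 and Ndrg1 at −0.69. Hypoxia targets outside the 32 members thus stood on both sides of 0.

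Of the pentose phosphate genes 1 of 3 was higher in the Xcl1 cluster (Taldo1, the transaldolase, from 81.0 to 131, log2 ratio 0.66), and 0 of 7, 6, 5 and 4 were past 1.5-fold in B-like, helper or naive T-like, regulatory T-like and CD8 T-like cells. Of the genes of gluconeogenesis and glucose sensing, 1 of 5 was higher in CD8 T-like cells (Mlxip, a glucose-sensing transcription factor, from 23.1 to 45.6, log2 ratio 0.98). In the lists of the pyruvate dehydrogenase complex, the HIF pathway and other isozymes, 0 of the genes with at least 100 UMIs were past 1.5-fold in the classes that had any. No gene of the last list had 100 UMIs in CD8 T-like cells or the Xcl1 cluster.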

How the data were processed

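The authors deposited, for each library, a matrix of UMI counts by gene and barcode without normalization, written by Cell Ranger 3.1.0 per the file headers. The submitters' processing notes also list Seurat 2.3.4, CASAVA 1.8 and the assembly GRCm38, with no role given. The members and lists were chosen with earlier results of these data known. Kept cells had at least 200 genes and at most 20% mitochondrial UMIs. Doublets were removed when 2 marker panels (B, T or myeloid) each had at least 5 UMIs and 0.5 per 1000 UMIs (102 ad libitum and 152 FMD barcodes); 475 and 441 barcodes had too few genes and 661 and 694 too high a mitochondrial share. Both libraries were clustered together with no batch correction (scanpy 1.11.5, leidenalg 0.10.2, 2000 variable genes, 30 components, 15 neighbors, resolution 1, seed 1). Immunoglobulin, T cell receptor, mitochondrial and ribosomal genes, the members and the related lists were left out. Of 23 clusters, 2 stayed unnamed (171 and 169 cells, led by Hbb-bs and Fscn1) and are not used; names are from these clusters, not the authors'. Counts were summed per class and library (numpy 2.4.6, scipy 1.17.1). Ratios have exact conditional binomial intervals, levels Poisson intervals and shares Clopper-Pearson intervals. What a share of 0 is said to allow is not such an interval but 3 counts over the total. A gene was compared with at least 100 UMIs in the class over both libraries. The genes named are the members by role and, of the related lists, those past 1.5-fold. For 62 symbols on more than 1 gene line the line with the most UMIs was used. Pgm2 is the name in the deposited gene list; the gene at that identifier is Pgm1 in RefSeq and GENCODE. Gapdh, Pgam1, Ldha and Eno1 have near-identical copies that could share reads. The scripts were tested on simulated data.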

Additional observations from a re-analysis of the deposited data

How the results depend on the processing

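With 1 library per diet, no library could be left out and mouse-to-mouse spread was not measured. No paired analysis was possible because the groups compared share only replicate number 1. No log2 ratio of a named gene changed sign: 124 values kept their side of 1.5-fold and 10 did not, the latter counting each regulatory T-like cluster taken alone, which was chosen after seeing the data. Of other values under the alternatives, 22 class levels stayed within their counting interval and 6 moved, all 6 on thinning, and 196 isozyme shares stayed and 13 moved. Depth limits genes under 100 UMIs in a class. At resolution 0.5 no Xcl1 cluster was set apart, so it gave no value. The CD8 T-like class then held 265 and 217 cells, fewer than both classes together at resolution 1, so its make-up had changed.

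Counts of members past the fold moved as follows. At a looser threshold than 1.5-fold (the smallest fold tried), higher and lower in FMD were 1 and 2 of 27 in B-like cells (all genes 3.48% and 4.90%), 2 and 4 of 24 in helper or naive T-like (5.72% and 9.11%), 2 and 4 of 19 in regulatory T-like (13.8% and 7.39%), and 1 and 1 of 18 in CD8 T-like cells (6.83% and 10.3%). In the Xcl1 cluster they were 5 and 0 of 15 (13.2% and 7.60%). At 2-fold they were 0 and 0 of 19 in regulatory T-like cells (0.360% and 0.254%), with 1 of 15 higher in the Xcl1 cluster (1.00%). With cells thinned to 1000 UMIs, 7 members were still at 100 UMIs in regulatory T-like cells. Of these, 0 were higher and 0 lower (all genes 3.03% and 1.84%). In the Xcl1 cluster 0 of 1 was higher (6.47%), and the CD8 T-like median was 0.29. With a minimum of 20 UMIs, 1 of 29 was higher in helper or naive T-like cells (all genes 4.41%). In regulatory T-like cells 2 of 29 were higher and 3 lower (8.11% and 6.15%). In the Xcl1 cluster 6 of 26 were higher and 1 lower (10.3% and 6.59%). Lower in helper or naive T-like cells were 1 of 24 with at most 10% mitochondrial UMIs (all genes 1.86%) and 2 of 25 without doublet removal (1.40%). With members kept for clustering, 1 of 24 was lower (1.77%). Lower in CD8 T-like cells was 1 of 18 under each of these 3 settings, with scaling to all UMIs, and without the top cell of each gene. Among all genes 1.78% to 2.11% were lower there. At resolution 0.5, 3 of 19 were higher in CD8 T-like cells (all genes 2.01%), a class that then held 265 and 217 cells.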
